A study of Mus musculus with 10 samples.

Results

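Interferon-stimulated genes with antiviral roles were examined in RAW264.7 mouse macrophages that received lipopolysaccharide (LPS) with or without the fatty acid **1**. The list was chosen by name, and the Ifit, Oas, guanylate-binding protein and Schlafen families, the IRF and STAT factors and the nucleic acid sensors were kept out of it. It holds 40 genes of the 43432 in the count table, and all 40 were among the 14172 genes with enough counts to be tested.

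Compound **1** is a monounsaturated fatty acid from a marine cyanobacterial mat, hexadec-7-enoic acid with its double bond in the E form and a keto group at carbon 9. RAW264.7 is a single macrophage-like line derived from a virus-induced tumour of BALB/c mice, and LPS is the cell wall component of Gram-negative bacteria that Toll-like receptor 4 detects. Poly(A) RNA was sequenced in 5 groups of 2 libraries, numbered in the labels as biological replicates 1 and 2. The groups were vehicle alone (DMSO, 0.5%), vehicle plus 1 µg/mL of LPS (DMSO + LPS, called LPS alone below), and the same LPS dose with **1** at 3.2, 10 or 32 µM. Cells had 1 h with compound or vehicle before LPS, and RNA was taken after 12 h. There was no group with **1** and no LPS. Whether the 2 libraries of a group came from separate cultures beyond their numbering is not given in the sources used here, so the p-values measure the spread between these libraries.

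Type I interferon made by activated macrophages binds its receptor on the same and neighbouring cells, and the kinases JAK1 and TYK2 then pass the signal on. Factors that include STAT2 and IRF9 bind the interferon-stimulated response element, a short repeat of GAAA boxes, and raise transcription of many antiviral genes. In macrophages, LPS reaches this pathway through the adaptors TRIF and TRAM, the kinase TBK1 and the factor IRF3, which start transcription of the interferon-beta gene *Ifnb1*.

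The response element shows in the reference promoters of part of the list. RefSeq promoter sequences on GRCm38.p6, each from 250 bases before to 50 after a transcription start, were present for 33 of the 40 genes in 42 windows. The element's core, GAAA, any 2 bases and GAAA again, on either strand with overlapping matches kept, occurred in 11 of the 33 genes (33.3%) and in 3.99% of 27025 genes with a promoter entry. All stretches below lie upstream of the start and are shown because they hold the core in genes that are described in detail later; capitals mark the matches, and a match on the other strand reads TTTC, any 2 bases and TTTC. *Isg15* is shown at chr4:156200860-156200911 (minus strand, bases -93 to -42) and *Ddx60* at chr8:61928019-61928086 (plus strand, bases -68 to -1). The stretch of *Phf11b* is chr14:59341356-59341395 (minus strand, bases -65 to -26), that of *Rsad2* chr12:26456548-26456587 (minus strand, bases -135 to -96) and that of *Lgals9* chr11:78984955-78984994 (minus strand, bases -70 to -31). *Trim30d* is given at chr7:104507866-104507905 (minus strand, bases -56 to -17) and the second annotated start of *Trim30a* at chr7:104465205-104465244 (minus strand, bases -51 to -12).
Isg15: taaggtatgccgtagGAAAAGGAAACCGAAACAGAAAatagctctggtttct
Ddx60: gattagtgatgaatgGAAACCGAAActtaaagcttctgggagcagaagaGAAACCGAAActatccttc
Phf11b: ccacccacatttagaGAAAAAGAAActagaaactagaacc
Rsad2: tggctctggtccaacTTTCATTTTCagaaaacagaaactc
Lgals9: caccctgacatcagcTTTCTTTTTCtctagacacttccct
Trim30d: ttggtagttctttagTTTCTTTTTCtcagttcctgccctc
Trim30a: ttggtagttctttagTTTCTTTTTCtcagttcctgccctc
*Isg15* held 3 overlapping matches in a row and *Ddx60* held 2 matches separated by other bases. The neighbouring genes *Trim30a* and *Trim30d* carried the same 40 bases. *Bst2*, *Eif2ak2*, *Ifitm3* and *Trim21* were the other genes with a match.

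Across the 11 genes and their annotated starts there were 19 matches. Of these, 12 began upstream of the start, and the first bases ranged from -130 to 20 relative to it. Another 3 motifs were searched on both strands, where matches of different motifs may overlap. The gamma-activated site core (TTC, any 3 bases, GAA) occurred in 18.2% of the 33 genes and 9.55% of all genes. An NF-kB site core (GGG, any 2 bases, TTTCC) was in 0% against 1.89%, and the antioxidant response element core (TGAC, any 3 bases, GC) was in 15.2% against 13.99%. A match says that these letters are present in the reference, and no binding was measured here.

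**Figure D1:**
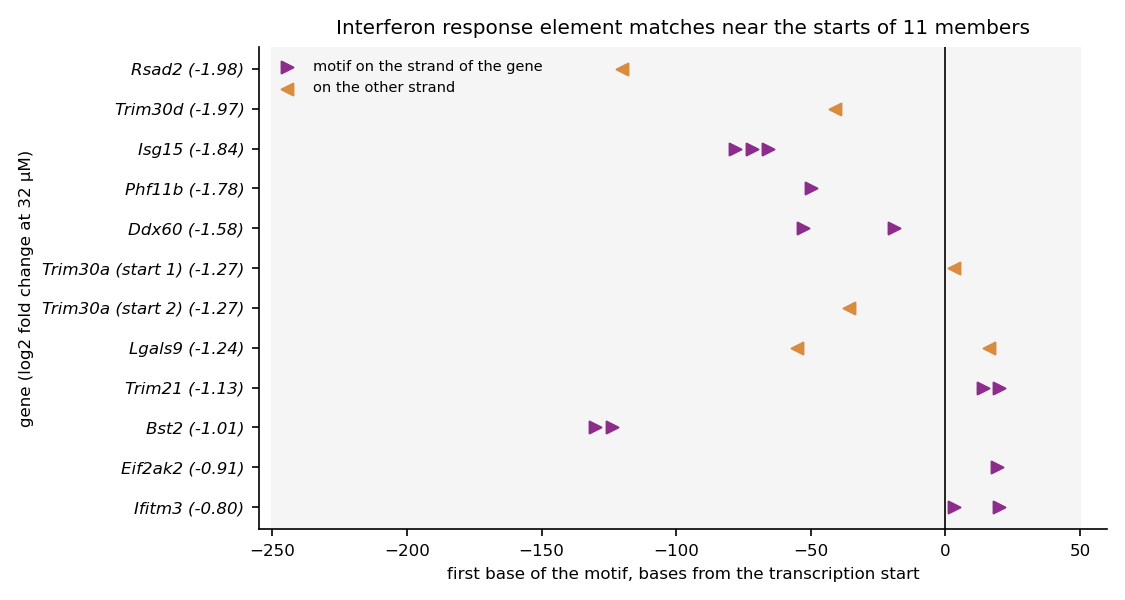
Position of each response element core (x axis, bases from the transcription start to the first base of the match) in the 11 genes that hold one, ordered by their log2 fold change at 32 µM against DMSO + LPS (in brackets). Right-pointing triangles are matches on the gene's strand and left-pointing ones on the other strand, the shaded area is the window searched, and all 19 matches lie between -130 and 20.

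Libraries held 45966803 to 58976377 counts, and CPM, the unit used below, are counts relative to library size after scaling by edgeR's TMM factors. A gene at 5 CPM had a counting error of at most 6.65%. Macrophage markers were above 1 CPM in every library for 8 of 8 genes. Markers of 6 other cell types were above 1 CPM in every library for 0 of 19 genes and below 1 CPM in every library for 14. The epithelial gene *Krt8* nevertheless had 1039 counts in replicate 1 of 10 µM and 153 in replicate 1 of 3.2 µM, and at most 2 in the other 8 libraries. *Epcam* had 451 and 78 counts in the same libraries and *Cdh1* had 200 and 25. The fibroblast gene *Col3a1* reached 3.44 and 0.518 CPM in these libraries and at most 0.017 elsewhere. The neutrophil gene *S100a8* had 1.02 and 0.581 CPM without LPS, 6.44 and 6.26 with LPS alone, 7.08 and 6.25 under 3.2 µM, 5.57 and 2.81 under 10 µM, and 2.39 and 1.39 under 32 µM, while *S100a9* and *Ly6g* stayed under 1 CPM. Ribosomal RNA took 2.83% of the counts in replicate 2 of 32 µM and 0.153 to 0.333% elsewhere. For the list as a whole, counts of called genes that rest on the libraries with epithelial counts or with most ribosomal RNA are given with and without them. The 2 genes with known responses behaved according to the labels: *Nos2*, the inducible nitric oxide synthase, went from 0.034 and 0 CPM in DMSO to 209.6 and 202 in DMSO + LPS, and *Nqo1*, a target of Nrf2, went from 2.65 and 2.58 CPM in DMSO + LPS to 16.3 and 16.1 at 32 µM.

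All 40 genes rose with LPS, and 37 of them were called lower with **1** at 32 µM. The 40 were called higher in DMSO + LPS than in DMSO, where a call means a change of at least 1.5-fold with an edgeR adjusted p under 0.05, and 14.6% of all tested genes were called higher. Scaled by library size alone, 38 were called, without *Trim25* and *Pnpt1*. The median log2 fold change over the list was 2.15, and over all genes it was 0.0026. Against DMSO + LPS, 37 of the 40 were called lower at 32 µM, where 2.91% of all tested genes were called lower, and the median was -1.17 beside 0.0082 over all genes. At 10 µM 6 of the 40 were called lower, beside 0.579% of all tested genes, and the median was -0.44. No gene of the list was called at 3.2 µM, where 0% of all tested genes were called and the median was -0.083. The list's share of all counts was 0.337 and 0.340% in the DMSO libraries and 1.13 and 1.11% with LPS alone. This share was 1.07 and 1.06% under 3.2 µM, 0.838 and 0.856% under 10 µM, and 0.523 and 0.502% under 32 µM, so that no 2 neighbouring groups overlapped. In bulk RNA, fewer responding cells and less RNA per cell cannot be told apart.

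**Figure D2:**
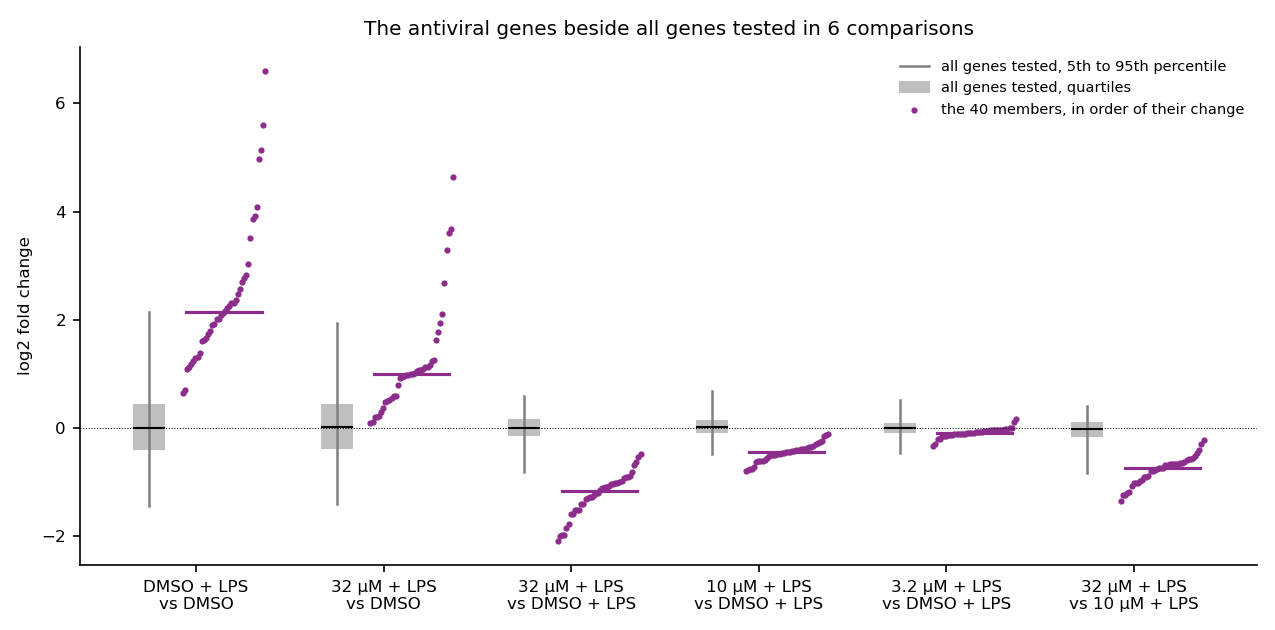
Log2 fold change (y axis) of the 40 genes, drawn as points in order of their change with a bar at their median, beside all 14172 genes tested (grey box for the quartiles, line for the 5th to 95th percentile) in 6 comparisons. The medians of the list are 2.15 for LPS, -1.17 at 32 µM, -0.44 at 10 µM and -0.083 at 3.2 µM, while the medians of all genes lie near 0.

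Levels differed widely between the genes. Per kilobase of annotated exon in DMSO + LPS, *Ifitm3* stood at 1354 CPM, *Isg15* at 682, *Bst2* at 525, *Lgals3bp* at 252 and *Usp18* at 206. *Trim30d* was lowest at 1.41 CPM per kilobase, followed by *Mx1* at 2.82 and *Ddx60* at 5.49. In all 40 genes both libraries with LPS alone lay above both DMSO libraries, as they did in 38.2% of all genes tested. Both 32 µM libraries lay below both with LPS alone in all 40, and in 24.3% of all genes.

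**Figure D3:**
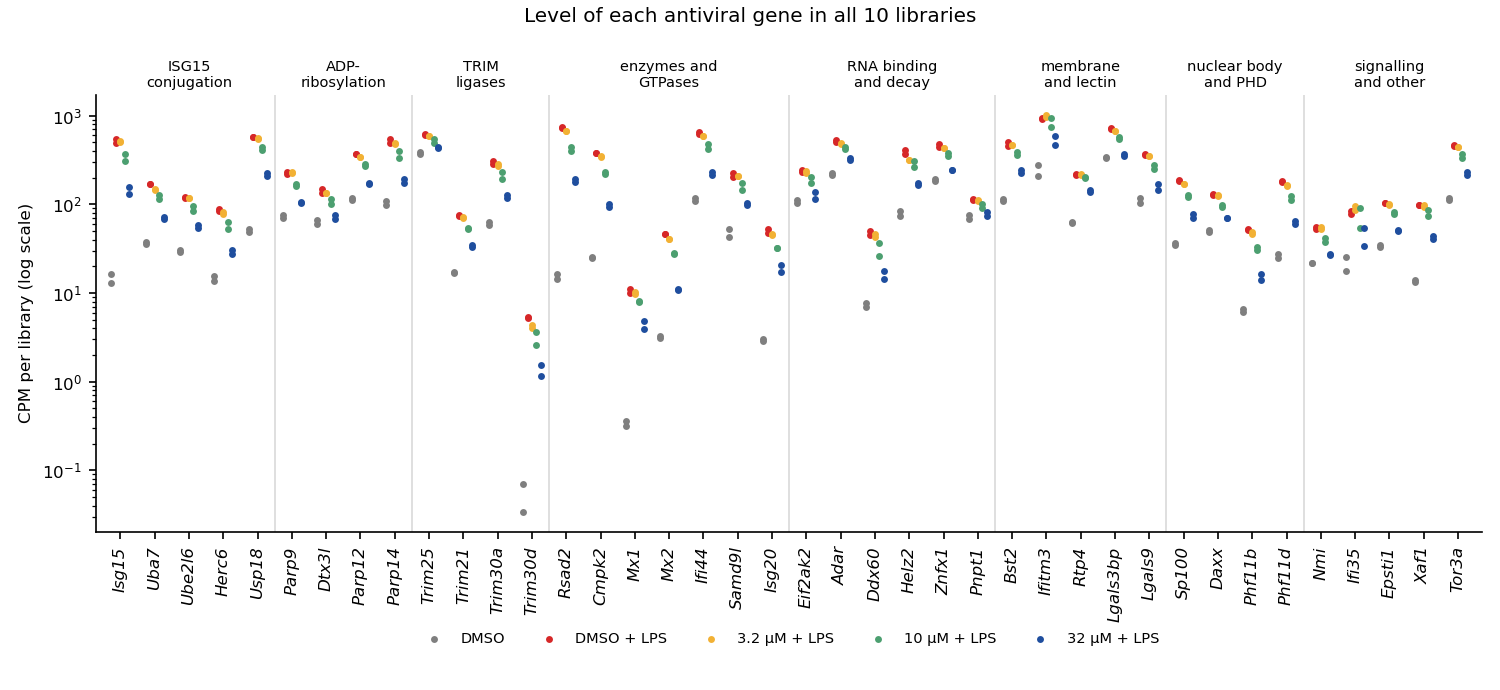
CPM (log scale, y axis) of each of the 40 genes in each of the 10 libraries, grouped by role, with 1 point per library and a colour per group. In all 40 genes both DMSO + LPS libraries lie above both DMSO libraries, and both 32 µM libraries lie below both DMSO + LPS libraries.

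ISG15 is a ubiquitin-like protein that interferon induces and that is joined to other proteins by a dedicated enzyme chain. All 5 genes of this chain were called lower at 32 µM (median log2 fold change -1.40). *Isg15* itself changed most among them, with 16.4 and 12.8 CPM without LPS, 492 and 538 with LPS alone, 520.3 and 505 under 3.2 µM, 367 and 305 under 10 µM, and 157 and 130.2 under 32 µM. Its 3.2 µM libraries overlapped those of DMSO + LPS, while the 10 and 32 µM libraries lay below them. *Isg15* had a log2 fold change of 5.14 ± 0.17 (SE), edgeR adjusted p = 1.1e-07, for LPS and -1.84 ± 0.14 (SE), edgeR adjusted p = 0.000122, at 32 µM. At 10 µM it was -0.62 ± 0.14 (SE), edgeR adjusted p = 0.0718, which did not pass. It was called there under 6 of 21 alternatives, among them DESeq2 (adjusted p = 0.00015), an edgeR likelihood ratio test (0.00477) and a replicate block (0.0223).

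The conjugating enzyme *Ube2l6* changed least in the chain, with 30.3 and 28.7 CPM without LPS, 118 and 119.8 with LPS alone, 116 and 118 under 3.2 µM, 95.3 and 83.4 under 10 µM, and 58.3 and 54.5 under 32 µM. Both the 10 and the 32 µM libraries lay below LPS alone. The log2 fold change at 32 µM was -1.08 ± 0.07 (SE), edgeR adjusted p = 4.9e-05. *Herc6*, the ligase that attaches ISG15 in mouse cells, had 88.2 and 84.3 CPM with LPS alone, 52.6 and 62.7 under 10 µM and 27.3 and 30.2 under 32 µM. Its log2 fold change was -1.59 ± 0.10 (SE), edgeR adjusted p = 3.53e-05, at 32 µM. At 10 µM it was -0.58 ± 0.10 (SE), edgeR adjusted p = 0.0205, which fell just short of the 1.5-fold limit. *Herc6* passed it under 7 of 21 alternatives, among them a replicate block (-0.59), DESeq2 (-0.59) and leaving out replicate 2 of 10 µM (-0.74). The activating enzyme *Uba7* (-1.27) and the protease *Usp18* (-1.40), which removes ISG15 and dampens interferon receptor signalling, were also called lower at 32 µM.

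ADP-ribosyltransferases of the PARP family mark proteins and nucleic acids during infection, and *Dtx3l* is the ubiquitin ligase that works in a complex with *Parp9*. The 4 genes of this group were all called lower at 32 µM. *Parp14* changed most, with 98.8 and 110.0 CPM without LPS, 549.6 and 489 with LPS alone, 477 and 486 under 3.2 µM, 331 and 399 under 10 µM, and 171 and 191 under 32 µM. Its 10 and 32 µM libraries did not overlap LPS alone. This gave a log2 fold change of -1.52 ± 0.11 (SE), edgeR adjusted p = 8e-05, for 32 µM and -0.51 ± 0.11 (SE), edgeR adjusted p = 0.052, for 10 µM. *Dtx3l* changed least, with 59.5 and 65.8 CPM without LPS, 148 and 136 with LPS alone, 135 and 135 under 3.2 µM, 102 and 116 under 10 µM, and 68.2 and 76.2 under 32 µM. At 32 µM its log2 fold change was -0.97 ± 0.09 (SE), edgeR adjusted p = 0.000283. *Parp9* (-1.11) and *Parp12* (-1.09) lay between these. Exons of *Parp9* and *Dtx3l* share 458 bases on opposite strands, and whether the counting used strand is not given in the sources used here.

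TRIM proteins are ubiquitin ligases, several of which sense or restrict viruses. Of 4, 3 were called lower at 32 µM. *Trim30d* had the lowest level per kilobase of the 40 genes, with 0.034 and 0.0705 CPM without LPS, 5.38 and 5.22 with LPS alone, 4.31 and 4.07 under 3.2 µM, 2.6 and 3.63 under 10 µM, and 1.55 and 1.15 under 32 µM. Both DMSO libraries were near 0, at 2 and 4 counts, beside 308 and 245 in DMSO + LPS, a ratio of 102 with a 95% counting interval from 46.7 to 280. *Rsad2* rose 48.2-fold with LPS, inside that interval, so that the order of the 2 is not set. At 32 µM its log2 fold change was -1.97 ± 0.23 (SE), edgeR adjusted p = 0.00109. At 10 µM the value was -0.77 ± 0.22 (SE), edgeR adjusted p = 0.153, and the gene was not called.

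*Trim25*, the ligase that activates the RNA sensor RIG-I, moved least of the list at 32 µM, with 366 and 393 CPM without LPS, 622 and 610.3 with LPS alone, 587 and 594 under 3.2 µM, 487 and 539 under 10 µM, and 433 and 448 under 32 µM. Both 32 µM libraries still lay below both DMSO + LPS libraries. In edgeR the log2 fold change was -0.48 ± 0.06 (SE), edgeR adjusted p = 0.00154, which passed on p and missed the 1.5-fold limit. Its rise with LPS was also small, at 0.70 ± 0.06 (SE). *Trim30a*, which restrains NF-kB signalling, had 304 and 285 CPM with LPS alone, 194 and 230.2 under 10 µM and 117 and 127 under 32 µM. Its log2 fold change was -1.27 ± 0.09 (SE), edgeR adjusted p = 7.67e-05, for 32 µM and -0.47 ± 0.09 (SE) for 10 µM. The antibody receptor *Trim21* had -1.13 at 32 µM. *Trim30a* and *Trim30d* are similar neighbours, 4820 bases apart, and reads from shared sequence could have been split between them.

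Enzymes and GTPases that act on viral particles or nucleotides had the largest median change, with all 7 called lower at 32 µM (median log2 fold change -1.51). *Mx2*, which encodes a dynamin-like GTPase, changed most of all 40 genes in the fit of all 10 libraries, with 3.09 and 3.26 CPM without LPS, 46.6 and 46.1 with LPS alone, 40.4 and 40.3 under 3.2 µM, 27.3 and 27.9 under 10 µM, and 11.01 and 10.7 under 32 µM. The groups did not overlap at any dose. Its order with *Trim30d* is not set. Over the alternatives at 32 µM that gene ranged from -2.20 to -1.77 and *Mx2* from -2.11 to -2.07. For *Mx2* the log2 fold change was -2.09 ± 0.05 (SE), edgeR adjusted p = 5.21e-07, at 32 µM, -0.75 ± 0.05 (SE), edgeR adjusted p = 0.000423, at 10 µM and -0.20 ± 0.05 (SE), edgeR adjusted p = 0.788, at 3.2 µM.

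*Rsad2* encodes viperin, which makes a chain-terminating nucleotide from CTP, and *Cmpk2* encodes the mitochondrial nucleotide kinase next to it on chromosome 12, with 12751 bases between the genes. *Rsad2* had 14.3 and 16.2 CPM without LPS, 751 and 719 with LPS alone, 662 and 668 under 3.2 µM, 403 and 445 under 10 µM, and 178 and 195 under 32 µM, and its 10 and 32 µM libraries lay far below those of DMSO + LPS. *Rsad2* had a log2 fold change of -1.98 ± 0.08 (SE), edgeR adjusted p = 5.27e-06, for 32 µM and -0.79 ± 0.08 (SE), edgeR adjusted p = 0.00251, for 10 µM. *Cmpk2* followed closely, at -1.99 and -0.75. *Isg20*, an exonuclease that degrades viral RNA, had 46.9 and 52.6 CPM with LPS alone, 32.3 and 32.3 under 10 µM and 20.8 and 17.01 under 32 µM. It was called at both doses, with -1.40 ± 0.10 (SE), edgeR adjusted p = 8.24e-05, for 32 µM and -0.62 ± 0.10 (SE), edgeR adjusted p = 0.0167, for 10 µM. The 10 µM call of *Isg20* was lost on leaving out either library of DMSO + LPS, 3.2 µM or 10 µM, with edgeR adjusted p from 0.0518 to 0.156, without both libraries with epithelial counts (0.184) and in a fit of only the 4 libraries compared (0.0917). That of *Rsad2* was lost without both libraries with epithelial counts, at edgeR adjusted p = 0.0591.

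*Samd9l*, a restriction factor that blocks translation, changed least in this group, with 43.2 and 52.03 CPM without LPS, 222 and 203 with LPS alone, 206 and 210.0 under 3.2 µM, 143 and 174 under 10 µM, and 97.1 and 103 under 32 µM. Its log2 fold change at 32 µM was -1.09 ± 0.11 (SE), edgeR adjusted p = 0.000625. *Ifi44*, a cytoplasmic protein of less defined action, had 645 and 624 CPM with LPS alone, 422 and 472 under 10 µM and 214 and 232 under 32 µM, with a log2 fold change of -1.51 ± 0.07 (SE), edgeR adjusted p = 9.25e-06, at 32 µM. *Mx1*, the nuclear relative of *Mx2* that is defective in many inbred mouse strains, stayed low at 11.2 and 10.1 CPM in DMSO + LPS and 3.9 and 4.82 at 32 µM, a log2 fold change of -1.29. Reads from sequence that the 2 Mx genes share could have been split between them.

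**Figure D4:**
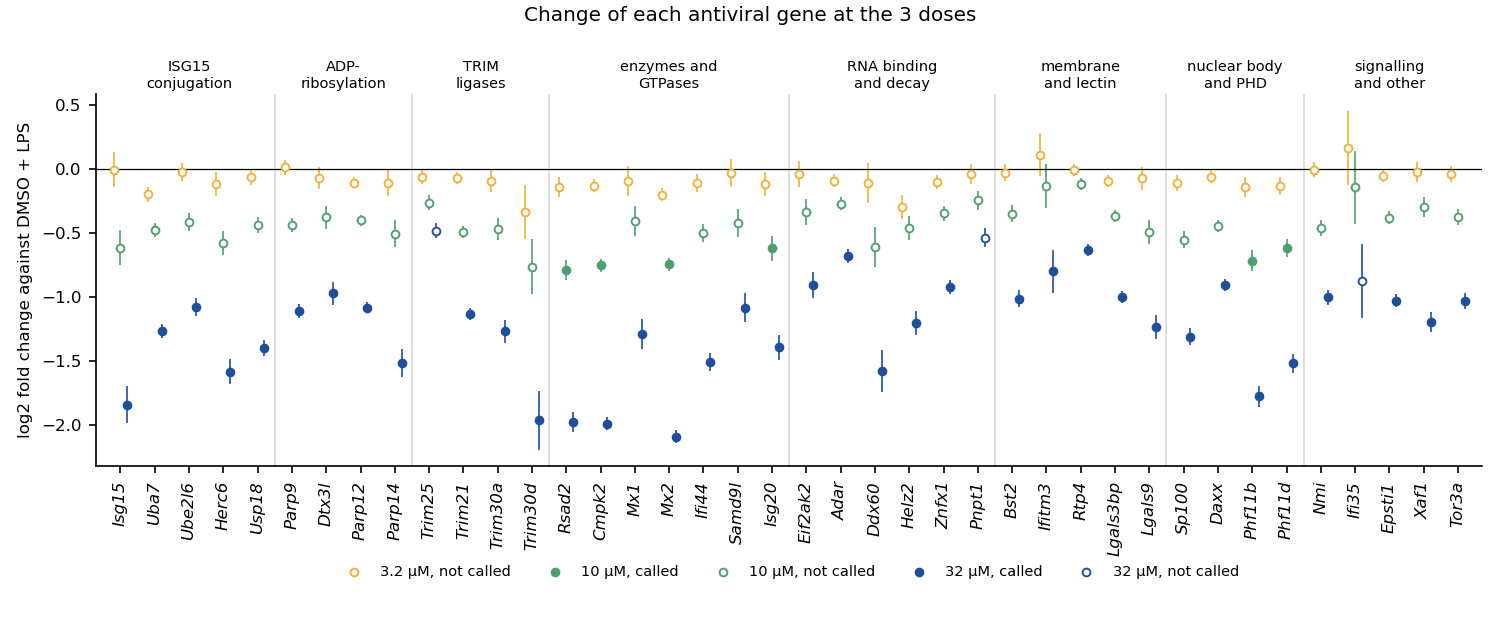
Log2 fold change against DMSO + LPS (y axis) of each gene at 3.2, 10 and 32 µM of **1**, with bars of 1 SE, filled where called and open where not. In all 40 genes the log2 fold change is lower at 10 than at 3.2 µM and lower at 32 than at 10 µM, over ranges from -0.34 to 0.16 at 3.2 µM through -0.79 to -0.12 at 10 µM to -2.09 to -0.48 at 32 µM.

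Proteins that bind, sense or degrade RNA had the smallest median change, with 5 of 6 called lower at 32 µM (median log2 fold change -0.92). *Ddx60*, a helicase linked to viral RNA sensing, changed most among them, with 6.89 and 7.73 CPM without LPS, 49.8 and 45.6 with LPS alone, 42.3 and 46.1 under 3.2 µM, 26.2 and 36.3 under 10 µM, and 14.3 and 17.6 under 32 µM. Its 10 µM replicates lay far apart but below LPS alone. On the log2 scale the change was -1.58 ± 0.16 (SE), edgeR adjusted p = 0.000593, for 32 µM and -0.61 ± 0.16 (SE), edgeR adjusted p = 0.12, for 10 µM. *Ddx60* was called at 10 µM under 6 of 21 alternatives, among them DESeq2 (adjusted p = 0.00843), an edgeR likelihood ratio test (0.0213) and a replicate block (0.0387). *Pnpt1*, the mitochondrial polynucleotide phosphorylase, changed least, with 68.99 and 75.5 CPM without LPS, 115 and 112 with LPS alone, 110.5 and 110.2 under 3.2 µM, 89.8 and 102 under 10 µM, and 74.5 and 82.1 under 32 µM. At 32 µM its log2 fold change was -0.54 ± 0.08 (SE), edgeR adjusted p = 0.0033, below the 1.5-fold limit, and without replicate 2 of 32 µM it was -0.61, beyond that limit. This is the gene with the smallest rise under LPS as well, at 0.65 ± 0.08 (SE).

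*Helz2*, a nuclear helicase and coactivator, had 410.5 and 369 CPM in DMSO + LPS and 317 and 317 already at 3.2 µM, followed by 259.8 and 305 under 10 µM and 166 and 173 under 32 µM. The 3.2 µM value, -0.30 ± 0.09 (SE), edgeR adjusted p = 0.961, did not pass, although in a fit of only the 4 libraries compared the edgeR adjusted p was 0.00688 at nearly the same change and still under 1.5-fold, and the 32 µM value was -1.20 ± 0.09 (SE), edgeR adjusted p = 0.000131. Smaller falls at 32 µM came in 3 genes. *Eif2ak2*, the kinase PKR that stops translation on double-stranded RNA, had -0.91, *Adar*, which edits such RNA, had -0.68, and *Znfx1* had -0.92. Exons of *Adar* overlap 1365 bases of *Chrnb2* on the opposite strand.

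Membrane proteins and lectins were all called lower at 32 µM, 5 of 5 (median log2 fold change -1.0). *Lgals9*, a galectin that binds sugars on cell surfaces, changed most, with 116 and 103 CPM without LPS, 373 and 364 with LPS alone, 349 and 351 under 3.2 µM, 277 and 247 under 10 µM, and 169 and 143 under 32 µM. Its 10 and 32 µM libraries did not overlap LPS alone. Its log2 fold change was -1.24 ± 0.09 (SE), edgeR adjusted p = 0.000107, at 32 µM. *Rtp4*, a chaperone of membrane receptors, changed least, with 63.8 and 61.4 CPM without LPS, 213 and 220.5 with LPS alone, 217 and 213 under 3.2 µM, 197 and 203 under 10 µM, and 136 and 144 under 32 µM. Its log2 fold change was -0.63 ± 0.05 (SE), edgeR adjusted p = 0.000106, for 32 µM and -0.12 ± 0.05 (SE), edgeR adjusted p = 0.376, for 10 µM, the smallest value of the list at that dose.

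*Ifitm3*, which stops enveloped viruses from fusing with the cell, had 277 and 206 CPM without LPS, 904 and 932 with LPS alone, 1026 and 958 under 3.2 µM, 933 and 740.3 under 10 µM, and 591 and 462 under 32 µM. Its libraries at 10 µM straddled those of DMSO + LPS and its 3.2 µM libraries lay above them. For *Ifitm3* the log2 fold change was -0.80 ± 0.17 (SE), edgeR adjusted p = 0.0226, at 32 µM, with a 95% interval from -1.20 to -0.41. This call was lost when either DMSO + LPS library, either 3.2 µM library or replicate 2 of 32 µM was left out, and without the last the value was -0.64. *Bst2*, the tetherin that holds budding virus at the membrane, had -1.01 and *Lgals3bp*, a secreted glycoprotein that galectins bind, had -1.0.

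Nuclear body and PHD finger proteins were called lower at 32 µM in 4 of 4 cases, with a median of -1.42. *Phf11b*, a PHD finger protein, changed most, with 6.07 and 6.68 CPM without LPS, 53.1 and 51.6 with LPS alone, 46.6 and 48.4 under 3.2 µM, 30.8 and 32.99 under 10 µM, and 14.2 and 16.4 under 32 µM. None of these groups overlapped, and the log2 fold change was -1.78 ± 0.08 (SE), edgeR adjusted p = 9.11e-06, for 32 µM and -0.72 ± 0.08 (SE), edgeR adjusted p = 0.00408, for 10 µM. The neighbouring *Phf11d*, 6055 bases away and similar enough that reads could have been split, had 182 and 176 CPM with LPS alone, 110.3 and 123 under 10 µM and 60.3 and 64.5 under 32 µM. Its log2 fold change was -1.52 ± 0.07 (SE), edgeR adjusted p = 9.25e-06, for 32 µM and -0.62 ± 0.07 (SE), edgeR adjusted p = 0.00451, for 10 µM. Without replicate 1 of DMSO + LPS neither gene was called at 10 µM, with edgeR adjusted p = 0.059 for *Phf11b* and 0.0639 for *Phf11d*. In a fit of the 4 libraries alone these were 0.0504 and 0.0829, and without both libraries with epithelial counts 0.0989 and 0.082. *Phf11d* was also lost without replicate 1 of 10 µM, at -0.54. *Daxx*, a chaperone of histone H3.3 that silences viral genomes, changed least, with 48.1 and 50.95 CPM without LPS, 128 and 132 with LPS alone, 123 and 127 under 3.2 µM, 93.1 and 97.6 under 10 µM, and 69.3 and 69.7 under 32 µM and a log2 fold change of -0.90 ± 0.05 (SE), edgeR adjusted p = 1.59e-05, at 32 µM. *Sp100*, which gives its name to a class of nuclear bodies, had 186 and 182 CPM with LPS alone, 122 and 129 under 10 µM and 69.7 and 78.5 under 32 µM, a log2 fold change of -1.31 ± 0.07 (SE), edgeR adjusted p = 1.22e-05, at 32 µM.

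Of 5 genes with signalling or other roles, 4 were called lower at 32 µM. *Xaf1*, an antagonist of the apoptosis inhibitor XIAP, changed most, with 14.01 and 13.3 CPM without LPS, 96.9 and 97.4 with LPS alone, 97.1 and 93.8 under 3.2 µM, 85.4 and 72.8 under 10 µM, and 44 and 40.8 under 32 µM. *Xaf1* had a log2 fold change of -1.20 ± 0.08 (SE), edgeR adjusted p = 5.82e-05, for 32 µM and -0.30 ± 0.08 (SE), edgeR adjusted p = 0.126, for 10 µM. *Ifi35*, which forms a complex with *Nmi*, was the one gene of the list that missed on p at 32 µM, with 25.5 and 17.6 CPM without LPS, 77.8 and 83.5 with LPS alone, 94.7 and 85.98 under 3.2 µM, 91.5 and 54.3 under 10 µM, and 53.6 and 34.2 under 32 µM. Its replicates differed widely within groups, and at 10 µM they straddled DMSO + LPS. For *Ifi35* the log2 fold change was -0.88 ± 0.29 (SE), edgeR adjusted p = 0.117, at 32 µM, with a 95% interval from -1.55 to -0.20. Replicate 1 exceeded replicate 2 in DMSO and at 3.2, 10 and 32 µM but not in DMSO + LPS. A score was taken over 472 protein-coding genes with transcripts under 1000 bases, ribosomal protein genes left out. It is the median over these genes of their log2 level relative to the group mean. The score had the same signs, at 0.116 and -0.116 in DMSO, 0.162 and -0.162 under 10 µM, 0.135 and -0.135 under 32 µM, but -0.0446 and 0.0446 with LPS alone. *Ifi35* was called lower at 32 µM under 5 alternatives, which were this score as a term in the fit (-0.91), a replicate block (-0.92), no count filter (-0.89), a likelihood ratio test (-0.88) and leaving out replicate 1 of 10 µM (-0.88). *Nmi* (-1.01), *Epsti1* (-1.03) and *Tor3a* (-1.03) were called lower at 32 µM.

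The steps between doses were compared next. All 40 genes had negative log2 fold changes at 10 µM, as did 45.2% of all genes tested. Of the 40, 26 had an edgeR adjusted p under 0.05 without regard to fold, beside 2.67% of all genes in either direction. That number was 3 in a fit of the 4 libraries alone, beside 0.307% of all genes. It was 38 with the short-transcript score as a term, beside 11.9%. Both 10 µM libraries lay below both DMSO + LPS libraries in 38 of the 40, as they did in 17.9% of all genes, and *Ifitm3* and *Ifi35* were the exceptions. Replicate 2 of 10 µM by itself lay below both in all 40, and in 39.5% of all genes. The 6 genes called at 10 µM were *Rsad2*, *Cmpk2*, *Mx2*, *Phf11b*, *Phf11d* and *Isg20*. Without replicate 1 of 10 µM, the library with epithelial counts, 4 genes were called, and with replicate 1 of 3.2 µM left out as well the number was 2. Without replicate 2 of 10 µM it was 13, and without replicate 1 of DMSO + LPS it was 3. From 10 to 32 µM, 30 of the 40 were called lower, beside 1.15% of all tested genes, with a median log2 fold change of -0.74. Without replicate 2 of 32 µM, the library with most ribosomal RNA, the number called was 28, and 37 against DMSO + LPS. Without both libraries with epithelial counts it was 25. The number was 0 in a fit of the 4 libraries alone. There 39 of the 40 genes had an unadjusted edgeR p under 0.05, beside 6.42% of all genes, and the lowest adjusted p was 0.0559.

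At 3.2 µM 37 of the 40 genes had negative and 3 had positive log2 fold changes, the latter being *Parp9* (0.01), *Ifitm3* (0.11) and *Ifi35* (0.16). Over all genes tested, 48.2% had negative values. Both 3.2 µM libraries lay below both DMSO + LPS libraries in 28 of the 40, beside 21.5% of all genes. Replicate 2 of 3.2 µM by itself lay below both in 31 of the 40, beside 32.5%. In edgeR 5 of the 40 had an unadjusted p under 0.05, beside 4.23% of all genes, and the lowest adjusted p was 0.788. A pair of other fits gave lower p at similarly small changes. In the 4 libraries alone, 21 had an unadjusted edgeR p under 0.05, beside 16.3% of all genes, and 5 had an adjusted p under 0.05, beside 3.64%. With the short-transcript score as a term the numbers were 20, beside 16.8%, and 6, beside 2.91%. None of these 5 or 6 genes changed by 1.5-fold. DESeq2 called 0 as well.

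LPS-treated cells with 32 µM of **1** were also set against DMSO without LPS. All 40 genes were higher than in DMSO, and 28 were called higher, beside 13.9% of all tested genes, with a median log2 fold change of 0.996. Without replicate 2 of 32 µM the number was also 28. Of the rise in mean CPM that LPS gave, a median of 24.8% remained at 32 µM, with 62.8% at 10 µM and 91.9% at 3.2 µM. Without the libraries with epithelial counts these were 67.3% at 10 µM and 92.1% at 3.2 µM. The share left at 32 µM was lowest in *Lgals3bp*, at 6.33%, and highest in *Rtp4*, at 50.1%. *Lgals3bp* stood at 338 and 332 CPM in DMSO and 367 and 352 at 32 µM, a log2 fold change of 0.10 ± 0.05 (SE). The other genes not called were *Pnpt1* (0.12), *Dtx3l* (0.20), *Trim25* (0.21), *Eif2ak2* (0.23), *Nmi* (0.30), *Znfx1* (0.37), *Daxx* (0.49), *Lgals9* (0.51), *Parp9* (0.52), *Adar* (0.56) and *Parp12* (0.58). Far above DMSO remained *Trim30d* (4.64), *Mx1* (3.68), *Rsad2* (3.61) and *Isg15* (3.30). This comparison shares libraries with those above.

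**Figure D5:**
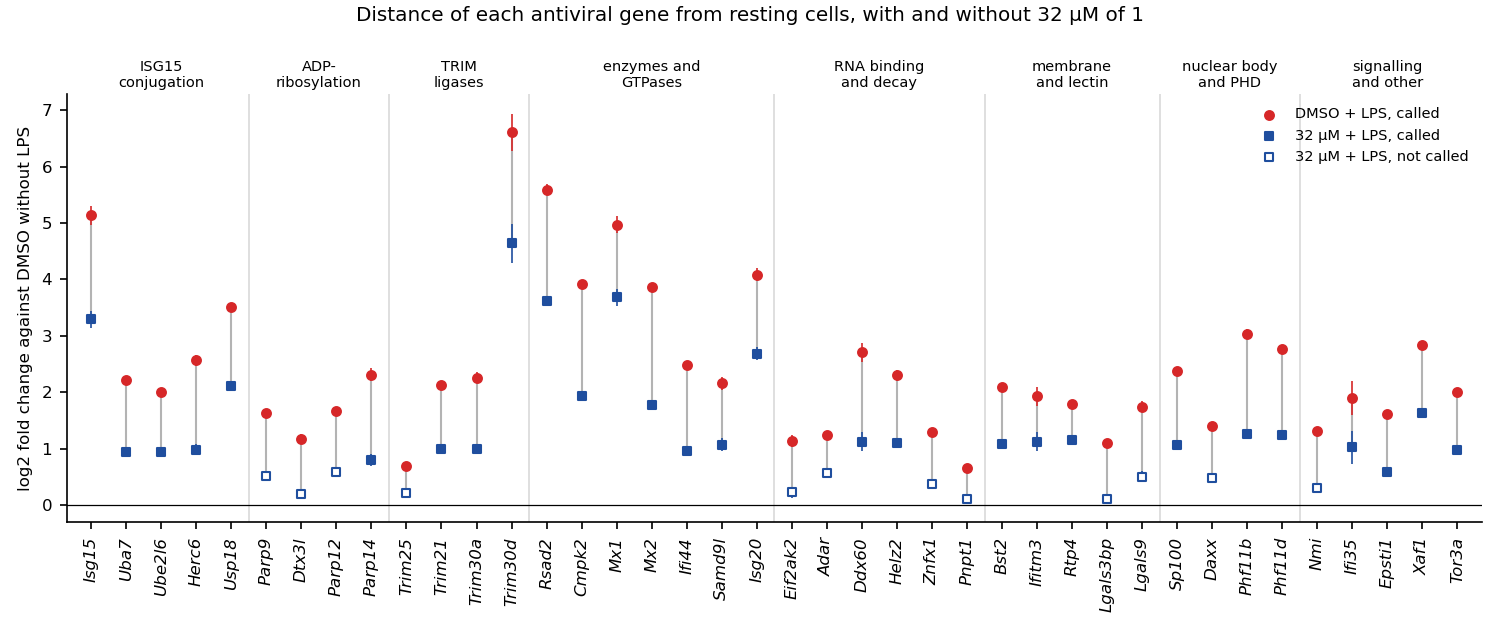
Log2 fold change against DMSO without LPS (y axis) of each gene in DMSO + LPS (circles) and at 32 µM of **1** with LPS (squares), with bars of 1 SE and a grey line joining the 2 values of a gene. Filled symbols were called, and the 12 open squares are the genes not called above DMSO at 32 µM.

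Genes with and without the response element core overlapped in their changes. Only the exact core was counted, so a gene said to hold none can still hold GAAA boxes at another spacing, as *Pnpt1* does. At 32 µM the median log2 fold change was -1.27 in the 11 genes with a match, from -1.98 to -0.80, and -1.08 in the 22 genes with none, from -1.99 to -0.48. The 7 genes without a promoter entry had a median of -1.29. Of the 8 genes that changed most in their role group, 5 held a match, 1 held none and 2 had no entry. Of the 8 that changed least, 0 held a match, 7 held none and 1 had no entry. This split was noticed after the values were seen and was not tested.

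Genes of interferon production and signalling were examined as a list of 19. With LPS 9 of them were called higher, beside 14.6% of all genes tested, and 2 lower, beside 13.6%. At 32 µM 0 were called higher, beside 1.27%, and 4 lower, beside 2.91%. Leaving out replicate 2 of 32 µM gave the same 4, and leaving out replicate 1 of DMSO + LPS gave 3, without *Ikbke*. *Ifnb1* had 4 and 6 counts without LPS, 60 and 58 with LPS alone, 37 and 28 under 10 µM, and 12 and 11 under 32 µM. The 32 µM libraries lay below those of DMSO + LPS and above those of DMSO, and the log2 fold change at 32 µM was -2.21 ± 0.30 (SE), edgeR adjusted p = 0.00241. *Irf7*, the factor that amplifies interferon transcription, had 849 and 876 CPM with LPS alone and 317 and 299 under 32 µM, a log2 fold change of -1.48 ± 0.06 (SE), edgeR adjusted p = 5.83e-06. *Ikbke*, a kinase related to TBK1, was the other gene called lower besides *Stat2*, with 69.3 and 63.8 CPM with LPS alone and 42.2 and 40.3 under 32 µM and a log2 fold change of -0.69 ± 0.11 (SE), edgeR adjusted p = 0.00489. Upstream of these, *Tlr4* (0.37), the adaptor genes *Ticam1* (-0.09), *Ticam2* (-0.13) and *Traf3* (0.07), the kinase *Tbk1* (-0.10) and *Irf3* (0.07) were not called at 32 µM.

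Of the factors STAT2 and IRF9, the first was called lower at 32 µM. *Stat2* had 204 and 193 CPM with LPS alone and 71.5 and 73.7 under 32 µM, a log2 fold change of -1.45 ± 0.05 (SE), edgeR adjusted p = 3.09e-06. In the fit of all 10 libraries it was the one gene of the 19 called at 10 µM, where 0.579% of all tested genes were called lower. Its value there was -0.65 ± 0.05 (SE), edgeR adjusted p = 0.000966, and without both libraries with epithelial counts it was -0.66. At a 2-fold limit 0 of the 19 were called at 10 µM. *Irf7* had 623 and 554 CPM under 10 µM, and whether it was called there changed with the libraries left out. *Irf9* had 133 and 133 CPM with LPS alone and 109 and 111 under 32 µM, with -0.28 ± 0.04 (SE), edgeR adjusted p = 0.00498, which missed the 1.5-fold limit. The receptor chains *Ifnar1* (0.14 ± 0.06 (SE), edgeR adjusted p = 0.236) and *Ifnar2* (0.21 ± 0.16 (SE), edgeR adjusted p = 0.554) were not called, nor were the kinases *Jak1* (-0.01) and *Tyk2* (-0.23). Like *Irf9*, the factors *Irf1* (-0.41) and *Irf8* (-0.28) and the feedback inhibitors *Socs1* (-0.55) and *Socs3* (-0.30) passed on p and missed the 1.5-fold limit, with edgeR adjusted p from 0.00282 to 0.0258.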

How the data were processed

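RNA was sequenced from RAW264.7 cells as poly(A)-selected, directional libraries on an Illumina NovaSeq. The authors deposited whole-number counts per Ensembl gene for all 10 libraries in 1 table; the submitters' processing notes name Trimmomatic, FastQC, STAR and DESeq2, without versions, and the build mm10. The counting tool, its strand setting and the annotation are not given in the sources used here. Gene symbols and coordinates came from GENCODE M21 on GRCm38 by unversioned identifier (42548 of 43432 genes matched), and promoters from RefSeq on GRCm38.p6.

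Counts were tested with edgeR 4.0.16 (R 4.3.3) by the quasi-likelihood F test on all 10 libraries with 1 mean per group, TMM scaling, filterByExpr at a minimum count of 10 and Benjamini-Hochberg adjustment over the 14172 genes tested. A call needs at least 1.5-fold and an adjusted p under 0.05. On simulated counts for the 32 µM comparison with 2-fold changes, 200 of 200 changed genes were recovered with 2 false calls among 14172 genes. That simulation used less spread between libraries than these data, whose common coefficient of variation was 0.128, and changed only genes with many counts. It therefore gives neither the power nor the error rate of the comparisons here. With 2 libraries a group, an exact permutation test of a single gene cannot go below p = 0.333, so none is given. Replicate libraries differed by 3.30 to 177 times the sampling noise (chi-square per degree of freedom), and none was counted as a duplicate. Counting intervals cover counting error only.

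The members, roles and lists were chosen with earlier results of these data known. The list of interferon production and signalling was used without 1 of its genes, which is not reported here. Genes given per library were those with the largest and smallest change at 32 µM in each role group, those not called at 32 µM, and those whose call at 32 or 10 µM changed on leaving out a library. *Rsad2*, *Mx1*, *Lgals3bp* and 13 genes of the interferon list were added after their values were seen. Alternatives were DESeq2 1.42.0, other scalings and filters, a likelihood ratio test, a fit of the compared libraries alone, a short-transcript covariate, a replicate block, a 2-fold limit and leaving out each library. Leaving out both libraries with epithelial counts was added after the data were seen.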

Additional observations from a re-analysis of the deposited data

How the results depend on the processing

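The count of genes called higher with LPS was 40 on leaving out any 1 library, and the median ranged from 2.13 to 2.17. At 32 µM the count called lower ranged from 36 to 38 and the median from -1.18 to -1.13. At 10 µM the count ranged from 3 to 13 and the median from -0.49 to -0.42, and at 3.2 µM the count was 0 throughout with medians from -0.10 to -0.058. From 10 to 32 µM the count ranged from 26 to 30, and for 32 µM against DMSO from 27 to 29. The lowest count at 10 µM came without replicate 1 of DMSO + LPS and the highest without replicate 2 of 10 µM. *Ifi35* at 10 µM ranged from -0.57 without replicate 1 to 0.16 without replicate 2 of that group, a change of sign, and the cause was not tested.

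Scaling by library size alone gave medians of 1.94 for LPS and 0.792 for 32 µM against DMSO, and it moved the median of all genes by -0.204 and -0.200 in these comparisons. Under it *Trim25* (0.49) and *Pnpt1* (0.45) were no longer called higher with LPS. The count at 10 µM was 3 in a fit of the 4 libraries compared, 10 with the short-transcript score as a term, 0 at a 2-fold limit and 2 without both libraries with epithelial counts. From 10 to 32 µM the count was 0 in the 4 libraries alone and 9 at a 2-fold limit. Against DMSO + LPS, the 32 µM calls of *Adar*, *Daxx*, *Dtx3l*, *Eif2ak2*, *Ifitm3*, *Lgals3bp*, *Rtp4* and *Znfx1* were lost at a 2-fold limit. Fewer libraries and a higher limit are part of those settings, and for the score the cause was not tested. The response element core was found in 7 genes when only the strand of the gene was searched.

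Replicate numbers were shared between groups, but the differences between replicates 1 and 2 correlated over 9562 genes from 0.385 to 0.851 in the 6 pairs of groups without DMSO + LPS and from -0.433 to -0.211 in the 4 pairs with it, so that the numbers were not taken as pairs across all groups. With a replicate block the counts were 40 for LPS, 38 at 32 µM, 9 at 10 µM, 0 at 3.2 µM, 31 from 10 to 32 µM and 28 for 32 µM against DMSO. Over single genes and 21 alternatives, call and direction were kept in 835 cases for LPS with 4 losses, in 820 at 32 µM with 13 losses and 6 gains, and in 790 at 10 µM with 22 losses, 26 gains and 1 change of sign. Among the genes named, *Trim30d* and *Ifnb1* rest on the lowest counts.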
